A study of Mus musculus with 9 samples.

Results

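Primordial germ cells (PGC) are the embryonic founders of sperm and eggs. The genes described here are 7 regulators of the making and keeping of PGC, namely Prdm1, Prdm14, Tfap2c, Dnd1, Nanos3, Dppa3 and Dazl. They were listed by name, and each was looked for by its GRCm38 coordinates among the 54913 loci of the RNA-seq data. A separate locus was found for 6 of the 7, out of 10330 genes with one in the whole data set. Dnd1 shared its locus with a neighbouring gene.

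The 9 libraries fall into 3 groups of 3. SSC were spermatogonial stem cells taken from mouse testes at postnatal day 6 by magnetic sorting for the surface receptor Gfra1 and used at passage 0. SSCiPSC were induced pluripotent stem cells (iPSC) made from SSC, and fiPSC were iPSC made from male fetal fibroblasts. The fibroblasts themselves are not among the libraries, so fiPSC can be set against SSC but not against their own parent cells. All 3 groups carry the same alleles, Gt(ROSA)26Sortm1(rtTA*M2)Jae and Col1a1tm3(tetO-Pou5f1,-Sox2,-Klf4,-Myc)Jae/J. With these, doxycycline switches on the 4 reprogramming factors. The iPSC were lines grown from colonies with LIF and doxycycline. The labels give passages 10 to 11 and a medium with doxycycline, whereas the study's methods give passages 13 to 14, no doxycycline after passage 8 and sorting for SSEA1 before RNA extraction. The study calls the 9 libraries biological samples, but the sources do not say whether the 3 of a group came from separate animals or lines, so the p-values measure only the spread between these libraries.

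As background, PGC arise in the early mouse embryo when BMP signals from the extraembryonic tissues turn on the transcription factors Prdm1 (also called Blimp1), Prdm14 and Tfap2c. These repress the somatic programme, restore pluripotency genes and begin the erasure of DNA methylation. Nanos3 and Dnd1 are RNA-binding proteins that keep PGC alive, Dppa3 (also called Stella) marks PGC and protects DNA methylation in the zygote, and Dazl is an RNA-binding protein that licenses germ cells for their later sexual development. Several of these genes are also active in pluripotent stem cells in culture. Spermatogonial stem cells descend from PGC but have long left that stage.

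DNA methylation of CpG sites in the promoter is a known means by which germ cell genes, Dazl among them, are kept silent elsewhere, so the upstream sequences of the members given by RefSeq are shown here for their CpG content. RefSeq promoters (GRCm38.p6) were at hand for 3 of the 7 genes. For each, the 250 bases before the start that RefSeq gives are printed on the gene's own strand, which is the minus strand for all 3, and capitals mark CpG dinucleotides. For Dazl this start lies close to the outermost one in GENCODE. For Prdm1 and Nanos3 it is an internal start, used by 1 and 2 GENCODE transcripts, while 1 other transcript of each begins further upstream. The values are given per locus and do not tell which start was used.
Dazl, chr17:50293621-50293870: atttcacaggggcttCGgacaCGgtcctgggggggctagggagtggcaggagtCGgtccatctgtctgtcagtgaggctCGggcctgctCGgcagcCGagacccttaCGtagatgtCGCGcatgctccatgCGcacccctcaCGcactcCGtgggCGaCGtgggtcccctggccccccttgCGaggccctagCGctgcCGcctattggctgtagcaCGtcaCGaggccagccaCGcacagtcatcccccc
Prdm1, chr10:44458749-44458998: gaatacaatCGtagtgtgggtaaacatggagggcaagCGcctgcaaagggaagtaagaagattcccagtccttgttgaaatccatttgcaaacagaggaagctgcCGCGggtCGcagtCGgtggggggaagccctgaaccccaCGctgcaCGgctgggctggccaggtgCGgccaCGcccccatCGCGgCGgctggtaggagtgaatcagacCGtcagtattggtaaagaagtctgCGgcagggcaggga
Nanos3, chr8:84176553-84176802: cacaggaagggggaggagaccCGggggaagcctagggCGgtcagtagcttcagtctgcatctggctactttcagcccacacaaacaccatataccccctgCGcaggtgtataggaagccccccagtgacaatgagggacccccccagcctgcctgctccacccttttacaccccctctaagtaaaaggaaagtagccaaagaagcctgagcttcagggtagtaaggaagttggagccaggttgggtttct

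The promoters differed in CpG content. Over the whole RefSeq window, which runs from 250 bases before to 50 bases after the start, the Dazl promoter held 28 CpG, that of Prdm1 held 20 and that of Nanos3 held 3, against a median of 7 over 32851 promoters. The ratio of observed to expected CpG was 0.795 for Dazl, 0.766 for Prdm1 and 0.131 for Nanos3. The share of promoters with fewer CpG was 85.8% for Dazl, 73.5% for Prdm1 and 23.3% for Nanos3.

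Of 5 motifs counted on both strands of this window, 2 occurred in these promoters, each once and both in that of Nanos3. They were GCCNNNGGC, a motif of the TFAP2 family, present in 16.6% of all promoters, and the GC box GGGCGG, present in 35.7%. The 2 matches overlap each other. The octamer ATGCAAAT, the E-box CACGTG and the E2F6 motif TCCCGC, held by 1.74%, 7.15% and 19.98% of all promoters, were in none of the 3 windows. DNA methylation was not measured in these libraries.

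The libraries differed in depth, which sets how low a level could be seen. The totals estimated from the lowest values were about 1770000, 4630000 and 1380000 fragments in SSC replicates 1, 2 and 3, 15890000, 13500000 and 14890000 in SSCiPSC, and 13370000, 17760000 and 15480000 in fiPSC. Of all loci, from 18.9% to 35.4% were listed at 0 in an SSC library and from 9.64% to 13.9% in an iPSC library. Levels are given in FPKM, that is, fragments per kilobase of transcript, scaled to the fragments of the library.

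Against SSC, the regulators split in the same way in both kinds of iPSC. Prdm1, Prdm14 and Tfap2c, the transcription factors that specify PGC, and Dppa3 were higher in SSCiPSC and in fiPSC, whereas the RNA-binding proteins Nanos3 and Dazl were lower. In SSCiPSC against SSC, 4 of the 6 genes passed the test as higher and 2 as lower. Many loci changed in this comparison, since 26.2% of 36544 loci were higher in SSCiPSC and 24.1% were lower at an adjusted p below 0.05 (limma, Benjamini-Hochberg). The split of these background calls by direction depended on the libraries, the filter and the scaling. In fiPSC against SSC, the counts were again 4 higher and 2 lower, with 28.0% of 38007 loci higher in fiPSC and 23.7% lower. Both comparisons use the same SSC libraries, so they are not independent of each other. In both, Prdm14 is counted as higher but entered the test only through the iPSC libraries.

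All 6 genes had groups that did not overlap in either comparison with SSC. This was so for 59.8% of all loci tested in SSCiPSC against SSC and for 61.6% in fiPSC against SSC. The exact two-sided permutation test gave p = 0.1 for each of the 6 genes in both comparisons, which is the smallest value that 3 against 3 libraries allow.

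**Figure D1:**
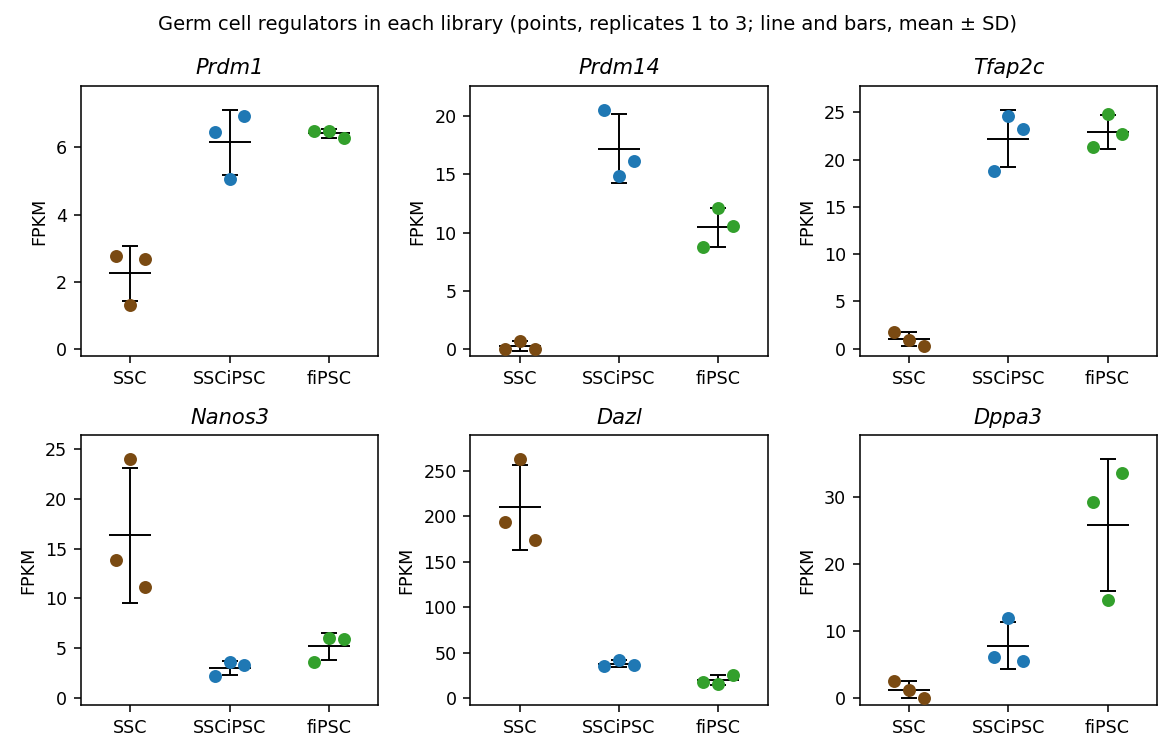
FPKM of the 6 regulators with a locus of their own (linear axis, 1 panel a gene) in each library of SSC, SSCiPSC and fiPSC, with 1 point a library and the mean ± SD of 3 libraries. Prdm1, Prdm14, Tfap2c and Dppa3 lie lowest in SSC, and Nanos3 and Dazl lie highest there.

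Prdm14, a PR domain zinc finger protein needed for PGC fate and for naive pluripotency (chr1:13113457-13127163, minus strand), had the largest difference of the 6 genes on the log2(FPKM + 1) scale in SSCiPSC against SSC, but not in fiPSC against SSC. Its rank depends on how the values at 0 in SSC are taken. It passed the filter on low values only through the iPSC libraries. Its locus was listed at 0 in SSC replicates 1 and 3 and at 0.709 FPKM in replicate 2, about 7.89 fragments. In those 2 libraries, a count of 0 allows levels up to 0.706 and 0.901 FPKM. In SSCiPSC it stood at 20.6, 14.9 and 16.1 FPKM, and in fiPSC at 8.71, 12.1 and 10.6 FPKM. The iPSC libraries were all far above SSC, and all fiPSC libraries lay below all SSCiPSC libraries.

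On the log2(FPKM + 1) scale, Prdm14 was higher by 3.92 ± 0.31 (SE, n = 3 a group) in SSCiPSC than in SSC (limma, adjusted p = 0.000227) and by 3.25 ± 0.30 in fiPSC (limma, adjusted p = 0.000342). As the gene entered the test only through iPSC, where it is high, these p-values support no conclusion. With a pseudocount of 0.1, these differences became 6.42 and 5.70, as the pseudocount weighs on values near 0. A second locus without a strand, at chr1:13113373-13113711, overlaps the end of the gene at its 3′ side and was not used in the test of the member. It was listed at 0, 1.19 and 0 FPKM in SSC, at 19.0, 17.8 and 18.5 in SSCiPSC and at 9.79, 13.1 and 12.2 in fiPSC, which is the same pattern.

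Tfap2c, the AP-2 gamma transcription factor (chr2:172549593-172558622, plus strand), was low in SSC, at 1.78, 0.910 and 0.304 FPKM, which correspond to about 8.91, 11.9 and 1.19 fragments. In SSCiPSC it stood at 18.8, 24.6 and 23.2 FPKM, and in fiPSC at 21.3, 24.8 and 22.7 FPKM. The mean was 0.999 ± 0.743 FPKM (SD, n = 3) in SSC, 22.2 ± 3.04 in SSCiPSC and 22.9 ± 1.76 in fiPSC. The difference from SSC was 3.60 ± 0.32 on the log2 scale for SSCiPSC and 3.65 ± 0.30 for fiPSC (SE, limma, adjusted p = 0.000315 and 0.000244). The iPSC groups overlapped each other.

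Prdm1, a zinc finger repressor at the head of PGC specification that also acts in plasma cells and other lineages (chr10:44437177-44528501, minus strand), was present in all libraries. It stood at 2.76, 1.31 and 2.69 FPKM in SSC, from about 19.0 to 31.0 fragments a library. SSCiPSC had 6.46, 5.06 and 6.93 FPKM and fiPSC had 6.49, 6.49 and 6.27 FPKM. The gene was thus the least changed of the 4 higher ones, 2.73 times its SSC mean in SSCiPSC and 2.85 times in fiPSC.

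The log2 difference of Prdm1 was 1.16 ± 0.29 for SSCiPSC and 1.23 ± 0.26 for fiPSC (SE, limma, adjusted p = 0.0165 and 0.00867). The call for SSCiPSC was lost without SSCiPSC replicate 1 (limma, adjusted p = 0.0646) and without SSCiPSC replicate 3 (adjusted p = 0.0745), in a range from 0.00276 to 0.0745 over its alternatives. Further loci without a strand, over the gene or its 3′ end, had means from 0.620 to 0.878 FPKM in SSC and from 0.510 to 1.86 in iPSC. Where tested, none of them differed between SSC and iPSC at an adjusted p below 0.05 (limma). With the loci named for the gene summed, the difference in SSCiPSC was 1.04 (limma, adjusted p = 0.0468). Of the markers of B lymphocytes and plasma cells, in which Prdm1 also acts, only Sdc1 had a locus, with 18.2, 14.4 and 24.3 FPKM in SSC and from 19.8 to 22.6 FPKM in iPSC.

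Dppa3 (chr6:122626410-122630272, plus strand) was near the limit of detection in SSC, with 2.50, 1.24 and 0 FPKM, that is, about 2.98 and 3.87 fragments and none. Its level was 6.06, 11.9 and 5.50 FPKM in SSCiPSC and 29.2, 14.7 and 33.5 FPKM in fiPSC. It was the gene with the widest spread within fiPSC, where the SD was 9.85 FPKM around a mean of 25.8. A processed pseudogene of Dppa3 lies on the X chromosome, and reads of the copies could not be told apart here.

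The log2 difference of Dppa3 from SSC was 2.08 ± 0.53 for SSCiPSC (SE, limma, adjusted p = 0.0171) and 3.67 ± 0.53 for fiPSC (limma, adjusted p = 0.00185). The first call was lost with a pseudocount of 0.1 (3.40, adjusted p = 0.0692) and without SSCiPSC replicate 2 (1.77, adjusted p = 0.0677), in a range from 0.00700 to 0.0692. The second held in all 16 alternatives run for it.

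Dazl (chr17:50279395-50293636, minus strand) was the most abundant regulator in SSC, at 194, 263 and 174 FPKM. It was lower but not silent in iPSC, at 34.9, 42.3 and 36.2 FPKM in SSCiPSC and 17.4, 15.3 and 25.8 FPKM in fiPSC. At least 654 fragments stood behind each of these values, so depth did not limit them. The SSC mean was 5.56 times that of SSCiPSC and 10.8 times that of fiPSC.

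On the log2 scale, Dazl fell by 2.43 ± 0.19 in SSCiPSC (SE, limma, adjusted p = 0.000199) and fell by 3.38 ± 0.24 in fiPSC (limma, adjusted p = 0.000162). Each call held in all 16 alternatives run for it. The log2 difference was -3.22 in SSCiPSC after quantile normalization, and in fiPSC it reached -3.99 over the alternatives. In SSCiPSC, Dazl remained the highest of the 6 regulators in FPKM, above Tfap2c with no overlap of their ranges.

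Nanos3 (chr8:84173731-84185217, minus strand), the second RNA-binding protein with a locus, stood at 13.8, 24.0 and 11.1 FPKM in SSC. Because its transcript is short, these levels rest on about 13.95, 63.3 and 8.79 fragments. In SSCiPSC the gene had 2.19, 3.59 and 3.28 FPKM, and in fiPSC 3.63, 6.04 and 5.94 FPKM. Every SSC library lay above every iPSC library.

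Nanos3 fell by 2.05 ± 0.32 on the log2 scale in SSCiPSC (SE, limma, adjusted p = 0.00244) and fell by 1.44 ± 0.32 in fiPSC (limma, adjusted p = 0.0108). The annotated gene also hosts the microRNA genes Mir181c and Mir181d, and the table lists 3 further loci without a strand over the same interval. These 3 had means from 1.72 to 2.52 FPKM in SSC and from 0.617 to 2.87 FPKM in iPSC. Where tested, none of them differed between SSC and iPSC at an adjusted p below 0.05 (limma). With all loci of a gene summed, Nanos3 stayed past the threshold in both comparisons.

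Dnd1, the RNA-binding partner of Nanos proteins (chr18:36763671-36766214, minus strand), could not be measured by itself. A single minus-strand locus at chr18:36761773-36791828 spans Dnd1 and Hars, the histidyl-tRNA synthetase gene. It stood at 27.9, 36.3 and 28.9 FPKM in SSC, 65.1, 81.6 and 68.5 in SSCiPSC and 63.0, 55.6 and 64.4 in fiPSC. The locus was higher than in SSC by 1.19 ± 0.16 on the log2 scale in SSCiPSC and by 0.96 ± 0.14 in fiPSC (SE, limma, adjusted p = 0.00131 and 0.00167). The parts that Dnd1 and Hars had in this difference cannot be told apart.

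**Figure D2:**
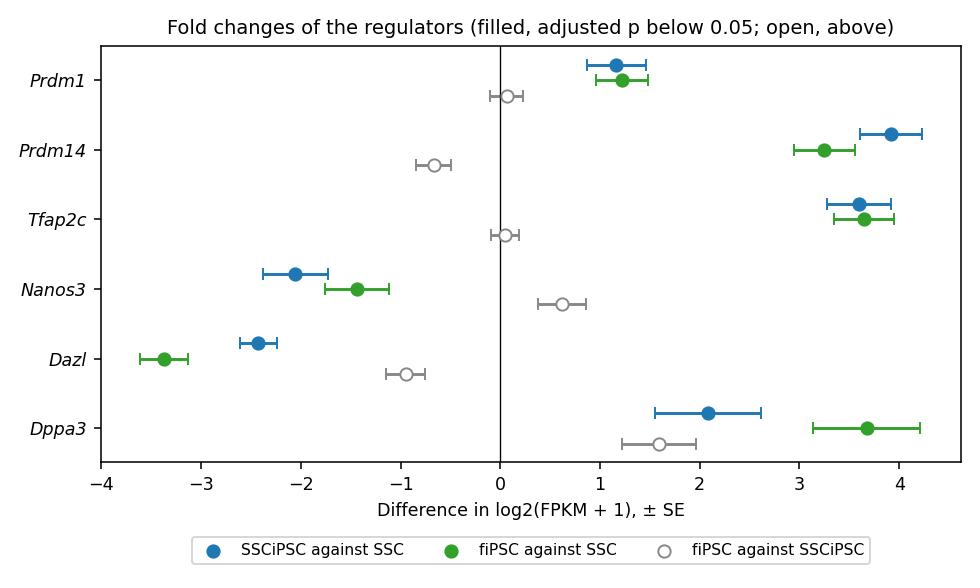
Difference in log2(FPKM + 1) of the 6 regulators (± SE, 3 libraries a group) for SSCiPSC against SSC, fiPSC against SSC and fiPSC against SSCiPSC. Filled points passed an adjusted p of 0.05 in limma and open points did not, which holds for all 6 genes between the iPSC groups.

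The order of the levels changed between the groups. In SSC, Dazl (mean 210 FPKM) and Nanos3 (16.3) led with no overlap between them or with Prdm1 (2.25), while Prdm1, Dppa3 (1.25), Tfap2c (0.999) and Prdm14 (0.236) overlapped from one to the next. In SSCiPSC, the order by mean was Dazl (37.8 FPKM), Tfap2c (22.2), Prdm14 (17.2), Dppa3 (7.83), Prdm1 (6.15) and Nanos3 (3.02), with overlap between Tfap2c and Prdm14 and between Dppa3 and Prdm1. In fiPSC, Dppa3 (25.8 FPKM), Tfap2c (22.9) and Dazl (19.5) overlapped from one to the next, and Prdm14 (10.5), Prdm1 (6.42) and Nanos3 (5.20) followed with no overlap.

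Between fiPSC and SSCiPSC, none of the 6 regulators passed the test, and 0.0678% of 33948 loci did (limma, adjusted p below 0.05). This comparison asks whether iPSC of germ cell origin keep another level of these genes than iPSC of somatic origin. At an unadjusted p below 0.05 there were 4 of the 6, against 11.7% of all loci tested. The groups did not overlap for the same 4 genes, Dazl, Prdm14, Dppa3 and Nanos3, against 18.6% of all loci, and the exact two-sided permutation test gave p = 0.1 for each, the smallest it allows.

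Dazl and Prdm14 had the lower values in fiPSC. The log2 difference was -0.95 ± 0.20 for Dazl (SE, limma, adjusted p = 0.205, between 0.178 and 0.709 over its alternatives) and -0.67 ± 0.18 for Prdm14 (limma, adjusted p = 0.265). Dppa3 and Nanos3 had the higher values in fiPSC, by 1.59 ± 0.37 (limma, adjusted p = 0.225) and 0.62 ± 0.24 (adjusted p = 0.392). For Nanos3 the groups were close to touching, since the highest SSCiPSC library had 3.59 FPKM and the lowest fiPSC library had 3.63. Prdm1 and Tfap2c differed by 0.06 ± 0.16 and 0.05 ± 0.14, within the spread of the libraries, and their groups overlapped.

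The SSC libraries also held transcripts of other testis cells, which bears on any level that is scaled to the whole library. Of the Sertoli cell markers, 7 of 10 had a locus, and their summed level was 1019, 1011 and 837 FPKM in the SSC libraries, led by Clu at 713, 645 and 538 FPKM. In iPSC that sum was from 170 to 303 FPKM, which was mostly Rhox5, a gene that iPSC express themselves at 260 FPKM in SSCiPSC and 177 in fiPSC on average. The Leydig cell markers (3 of 7 with a locus) summed to 160, 124 and 236 FPKM in SSC, led by Cyp11a1, the enzyme that starts steroid synthesis, and to no more than 0.358 FPKM in any iPSC library.

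Markers of macrophages (6 of 7 with a locus) summed to 47.7, 15.1 and 146 FPKM in SSC, led by C1qa, and from 8.81 to 14.4 in iPSC, led by Cd68. Of these, Cd68 and Cd14 missed the threshold in both comparisons. Cd68 had means of 8.94 FPKM in SSC, 10.8 in SSCiPSC and 11.0 in fiPSC. Markers of fibroblasts or feeder cells (8 of 8) summed to 99.0, 91.9 and 271 FPKM in SSC, led by Col3a1, and from 10.7 to 40.9 in iPSC. Of these, Thy1 and Lum missed the threshold in both comparisons. Thy1 had means of 0.867 FPKM in SSC, 3.09 in SSCiPSC and 3.90 in fiPSC. The study's methods say that iPSC were sorted to limit feeder cells, and the part of feeder cells in the iPSC libraries was not tested. Peritubular myoid markers (4 of 5) summed to 85.8, 76.9 and 70.2 FPKM in SSC, led by Acta2, and from 8.98 to 12.5 in iPSC, led by Des. Of these, Des and Cnn1 missed the threshold in both comparisons. Des had means of 3.15 FPKM in SSC, 5.83 in SSCiPSC and 6.10 in fiPSC. Endothelial markers (5 of 5) summed to 114, 55.7 and 92.8 FPKM in SSC and from 83.4 to 127 in iPSC, both led by Pecam1, which iPSC also express. Without Pecam1 the other 4 summed to 58.9, 29.1 and 48.7 FPKM in SSC and from 2.17 to 3.80 in iPSC.

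Apart from Nanog, no marker of these lists with a locus was at 0 in all SSC libraries. SSC replicate 3 thus had the most macrophage and fibroblast transcripts, and SSC replicate 2 the fewest macrophage transcripts. Replicate 2 was also the deepest SSC library and had the highest Dazl and Nanos3 and the lowest Prdm1 of the group. The part of other cell types in the differences between SSC and iPSC was not tested. In such bulk samples, fewer cells of a type and less RNA per cell cannot be told apart.

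The identity of the groups was checked against germ cell and pluripotency markers. In SSC, Ddx4, the germ cell RNA helicase, stood at 58.8, 80.7 and 50.7 FPKM and Zbtb16, a transcription factor of undifferentiated spermatogonia, at 72.0, 77.4 and 51.9 FPKM. In iPSC, all 9 pluripotency markers with a locus (of 12) were higher than in SSC in both comparisons, with summed levels from 1661 to 1742 FPKM in SSCiPSC and from 1369 to 1451 in fiPSC, against 61.4, 44.0 and 34.9 in SSC. Nanog was listed at 0 in all 3 SSC libraries. Esrrb, Tdgf1 and L1td1, named after their values were seen, stayed below 1 FPKM in every SSC library. Nanog and these genes entered the tests only through iPSC, where they are high, so their calls support no conclusion.

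**Figure D3:**
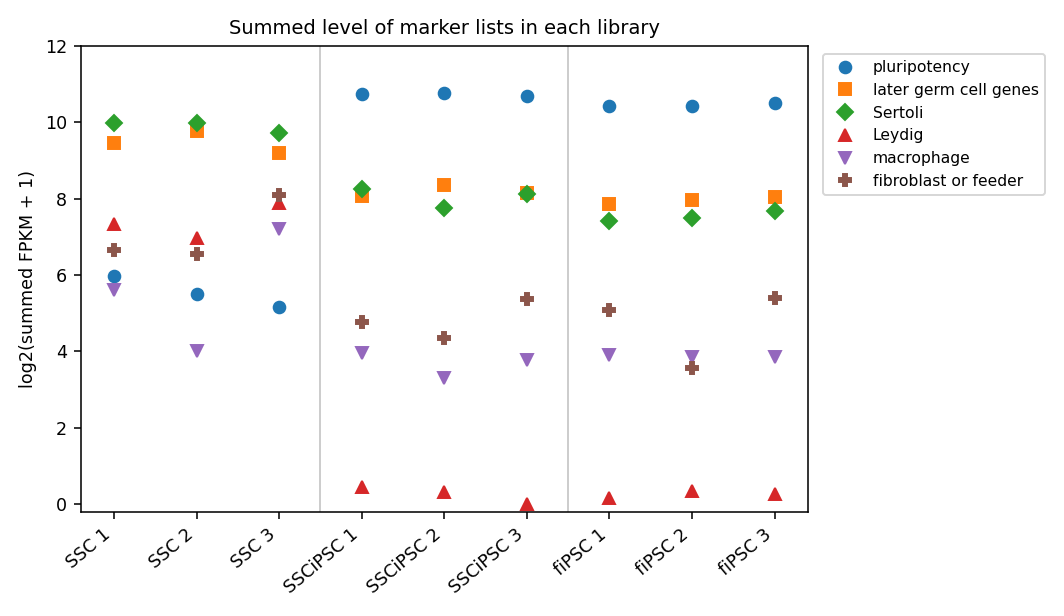
Summed FPKM of 6 marker lists in each of the 9 libraries, as log2(summed FPKM + 1). Leydig cell markers fall from between 124 and 236 FPKM in SSC to at most 0.358 FPKM in iPSC, and pluripotency markers stand above 1369 FPKM in every iPSC library.

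The genes around the regulators were taken from 4 lists of 55 genes in all, of which 44 had a locus. In SSCiPSC against SSC, 41 were tested, 14 were higher and 15 were lower, beside 26.2% and 24.1% of all loci. The lower count was 9 of 36 without SSC replicate 1 and without SSC replicate 2, and 10 of 36 without SSC replicate 3. In each case 5 of the lost genes (Zbtb16, Gfra1, Tdrd1, Sohlh1 and Cxcr4) were no longer tested, since they pass the filter on low values only through SSC. The higher count was 13, 11 and 10 of 39 without SSCiPSC replicate 1, 2 and 3, where Nanog and Otx2 were no longer tested. The counts were 11 higher and 19 lower after quantile normalization, 12 and 19 after median-ratio scaling and 14 and 20 with the loci of a gene summed. In fiPSC against SSC, 15 of 41 were higher and 18 were lower, beside 28.0% and 23.7% of all loci. There the higher count was 9 of 39 without fiPSC replicate 3 and 10 of 39 without fiPSC replicate 1, and the lower count was 12 of 36 without SSC replicate 1. There 5 lower genes left the test without an SSC library, and 2 higher ones (Nanog and Otx2) without an iPSC library. Between fiPSC and SSCiPSC none of 35 passed the test (limma), and 5 had an unadjusted p below 0.05, beside 11.7% of all loci. The median of all loci tested was 0.11 on the log2 scale in SSCiPSC against SSC and 0.17 in fiPSC against SSC.

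Genes of PGC induction, that is, BMP and WNT signals and the factors they act through, moved in both directions. Of 9 tested, 1 was higher and 4 were lower in SSCiPSC, and 2 were higher and 6 were lower in fiPSC, with a median of -0.66 and -0.72 on the log2 scale. Over all loci, 26.2% were higher and 24.1% lower in SSCiPSC, and 28.0% and 23.7% in fiPSC. Otx2, a transcription factor of the formative epiblast that restrains PGC entry, was higher. It was listed at 0.558, 0 and 0 FPKM in SSC and stood at 24.5, 21.3 and 17.3 in SSCiPSC and 34.2, 24.6 and 38.6 in fiPSC, a log2 difference of 4.24 ± 0.29 and 4.83 ± 0.28 (SE, limma, adjusted p = 0.000147 and 9.67e-05). Otx2 entered the test only through the iPSC libraries, where it is high, so these p-values support no conclusion.

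The BMP receptors Bmpr2 and Acvr1, the mesoderm factor T and the signal mediator Smad5 were lower in SSCiPSC. Their log2 differences were -2.58 ± 0.20, -1.85 ± 0.27, -0.92 ± 0.26 and -0.75 ± 0.17 (SE, limma, adjusted p = 0.000215, 0.00168, 0.0258 and 0.0109). The call of T was lost after quantile normalization and without any 1 of SSC replicates 1, 2 or 3 or SSCiPSC replicates 1 or 3, and that of Smad5 without SSCiPSC replicate 3. In fiPSC against SSC, T is counted as lower but entered the test only through SSC, so that call supports no conclusion. Bmpr1a, Smad1 and Smad4 missed the threshold in SSCiPSC, with means of 35.4, 9.39 and 18.7 FPKM against 55.0, 14 and 23.8 in SSC. Bmp4, the ligand that begins PGC induction, had 4.55 FPKM in SSCiPSC against 3.14 in SSC, not past the threshold, and was higher in fiPSC, at 6.50 FPKM (0.90 ± 0.27, limma, adjusted p = 0.0335).

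Protein partners of the regulators were higher or missed the threshold. Of 11 tested, 6 were higher and none lower in both SSCiPSC and fiPSC (limma), with a median of 1.09 and 1.12. The shares over all loci were 26.2% higher and 24.1% lower in SSCiPSC, and 28.0% and 23.7% in fiPSC. Uhrf1, which brings the maintenance methyltransferase to DNA and which Dppa3 binds, stood at 40.7, 42.4 and 39.5 FPKM in SSC, 170, 276 and 190 in SSCiPSC and 176, 160 and 207 in fiPSC. Prmt5, an arginine methyltransferase that works with Prdm1, stood at 26.4, 33.4 and 27.0 FPKM in SSC, 154, 146 and 133 in SSCiPSC and 135, 160 and 134 in fiPSC. In SSCiPSC the log2 difference was 2.31 ± 0.20 for Uhrf1 and 2.28 ± 0.14 for Prmt5 (SE, limma, adjusted p = 0.000262 and 0.000111).

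The deadenylase subunits Cnot8 and Cnot1, of the complex that Nanos proteins recruit to RNA, were higher in SSCiPSC by 1.65 ± 0.20 and 1.09 ± 0.17, the Dazl-binding protein Dazap1 by 1.16 ± 0.14 and Cbfa2t2, the corepressor that Prdm14 binds, by 1.38 ± 0.33 (SE, limma, adjusted p = 0.000898, 0.0023, 0.000901 and 0.0126). The call of Cbfa2t2 was lost with all loci of the gene summed and without SSCiPSC replicate 1, and that of Cnot1 after quantile normalization. Ehmt1, Ehmt2, Cnot3 and Pum2, each above 10 FPKM in a group, missed the threshold in both comparisons, with log2 differences from -0.39 (Ehmt2) to 0.39 (Cnot3) in SSCiPSC.

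Of the genes of PGC identity and migration, 6 of 8 tested were higher and 1 was lower in both kinds of iPSC, with a median of 1.70 in SSCiPSC and 1.20 in fiPSC, the same with Nanog at its lower bound. Among all loci, 26.2% were higher and 24.1% lower in SSCiPSC, and 28.0% and 23.7% in fiPSC. Nanog rose from a listed 0 to 483, 456 and 426 FPKM in SSCiPSC and 279, 270 and 295 in fiPSC. It is counted as higher but entered both tests only through iPSC, where it is high, so its calls support no conclusion. Pou5f1 (Oct4) stood at 16.2, 12.4 and 10.4 FPKM in SSC, 658, 877 and 665 in SSCiPSC and 622, 579 and 695 in fiPSC. Since the cells carry a Pou5f1 transgene, its own transcripts and those of the gene cannot be told apart.

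Alpl, the alkaline phosphatase by which PGC are stained, was higher in SSCiPSC by 2.88 ± 0.20, the receptor Kit by 2.14 ± 0.14 and the zinc finger factor Sall4 by 1.26 ± 0.38 (SE, limma, adjusted p = 0.000142, 0.000128 and 0.0318). The call of Sall4 was lost after quantile normalization, after median-ratio scaling and without SSC replicate 2 or 3 or SSCiPSC replicate 2 or 3. Cxcr4, the receptor that guides migrating PGC, fell by 3.26 ± 0.28 (limma, adjusted p = 0.000287), from 17.8, 10.7 and 18.1 FPKM in SSC to between 0.528 and 0.901 in SSCiPSC and between 0.559 and 1.53 in fiPSC. In SSCiPSC against SSC, Cxcr4 entered the test only through SSC, where it is high, so its p-value supports no conclusion. Elavl2 missed the threshold, with 17.1 FPKM in SSC and 11.9 in SSCiPSC on average.

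Most of the tested genes of later germ cells were lower in iPSC. Of 13 tested, 10 were lower and 1 was higher in SSCiPSC, and 11 were lower and 1 was higher in fiPSC, with a median of -2.30 and -2.46. For all loci the shares were 24.1% lower and 26.2% higher in SSCiPSC, and 23.7% and 28.0% in fiPSC. The largest falls in SSCiPSC among those past the threshold were those of Zbtb16 (-5.97 ± 0.22 on the log2 scale, SE), Gfra1 (-4.85 ± 0.25), Tdrd1 (-4.44 ± 0.23), Sohlh1 (-4.10 ± 0.36), Mael (-2.74 ± 0.26) and Dmrt1 (-2.71 ± 0.25). Their adjusted p-values (limma) lay between 3.11e-05 and 0.000381. Gfra1 was used to sort the SSC, so its fall is no finding. Without it 9 of 12 were lower in SSCiPSC and 10 of 12 in fiPSC, with a median of -2.15 and -2.37. Zbtb16, Tdrd1 and Sohlh1 entered the test only through SSC, so their p-values support no conclusion. They are still in these counts and medians, although they could be called only as lower. Dmrt1 is also a gene of Sertoli cells.

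These later genes differed in how far they fell. Tdrd1, a Tudor protein of the piRNA pathway, went from 27.9, 37.1 and 25.0 FPKM in SSC to between 0.340 and 0.505 in SSCiPSC and between 0.419 and 0.701 in fiPSC. Mael, also of the piRNA pathway, stood at 147, 196 and 135 FPKM in SSC, at 21.7, 31.9 and 16.8 in SSCiPSC and at 15.4, 13.2 and 19.2 in fiPSC. Ddx4 was also above 0 in iPSC, between 9.46 and 14.3 FPKM in SSCiPSC and between 7.42 and 15.4 in fiPSC. Ddx4 was singled out after its values were seen.

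The later germ cell gene that was higher in iPSC was Etv5, an ETS factor of stem cell self-renewal that is not confined to germ cells, named after its values were seen. It stood at 38.8, 30.7 and 28.9 FPKM in SSC, 103, 143 and 123 in SSCiPSC and 100, 94.0 and 118 in fiPSC. Stra8, which opens meiosis, missed the threshold in both comparisons. Its groups overlapped, with 6.06, 24.1 and 6.10 FPKM in SSC and from 13.3 to 32.8 in iPSC. Tex14 missed it in SSCiPSC, at 22.9 FPKM on average against 35.3 in SSC.

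**Figure D4:**
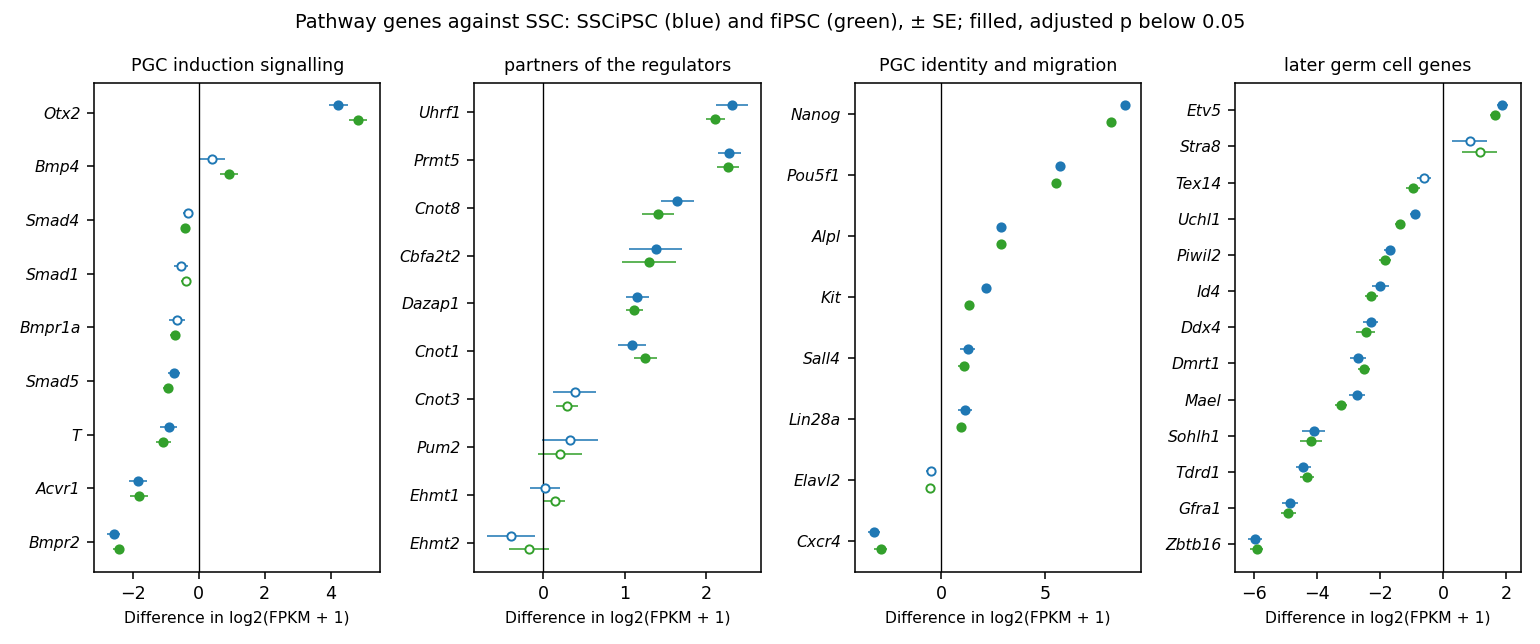
Difference in log2(FPKM + 1) from SSC (± SE) of the tested genes of the 4 pathway lists (1 not shown), with SSCiPSC in blue and fiPSC in green and filled points past an adjusted p of 0.05 (limma). Later germ cell genes reach -5.97 (Zbtb16), partners of the regulators lie at or above -0.39, and the value of Nanog, listed at 0 in SSC, depends on the pseudocount.

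Among family relatives of the regulators, 11 of 23 genes had a locus and 8 were tested, of which 3 were higher and 1 was lower in SSCiPSC, with a median of 0.09, beside 26.2% higher and 24.1% lower and a median of 0.11 over all loci. Dppa2 and Dppa4, which share only the Dppa name with Dppa3 in this list, were higher by 4.15 ± 0.48 and 3.68 ± 0.46 (SE, limma, adjusted p = 0.000707 and 0.001). Boll, the closest relative of Dazl here, fell by 2.58 ± 0.35 (limma, adjusted p = 0.00133), from 15.7, 24.2 and 9.93 FPKM in SSC to between 1.37 and 2.37 in SSCiPSC. But with all loci over the gene summed, unstranded ones included, its difference turned to 1.06 and passed the threshold as higher (limma, adjusted p = 0.0215). Prdm2, Prdm4 and Prdm10, each above 10 FPKM in a group, missed the threshold in SSCiPSC.

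The genes whose log2(FPKM + 1) followed each regulator most closely over the 9 libraries were searched among 9161 genes with a mean of at least 1 FPKM. Since SSC stand apart from all iPSC in depth and in cell makeup, any gene that splits the groups scores high, and the correlations are a description only. For Dazl they were Islr2, Fbxo33 and Fkbp6 (r = 0.989 for each), with Fkbp6 at 109 FPKM in SSC, 21.0 in SSCiPSC and 14.7 in fiPSC. For Nanos3 they were Grhl1, Tnrc18 and Pgm2l1 (r from 0.971 to 0.985).

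For Prdm14 the nearest were Kif2c, Gmnn and Tpx2 (r from 0.996 to 0.997), known for roles in the cell cycle and the spindle. Each had its highest mean in SSCiPSC, with Gmnn at 13.3, 115 and 79.4 FPKM in SSC, SSCiPSC and fiPSC. For Tfap2c they were Cbx7, Pianp and Arrdc4 (r from 0.996 to 0.998), and for Prdm1 Cog4, Tspan13 and Pycard (r from 0.978 to 0.985). For Dppa3 they were Spire2, Celf5 and Zp3 (r from 0.973 to 0.986), and Zp3, a protein of the egg coat, had means of 0.810 FPKM in SSC, 4.85 in SSCiPSC and 9.38 in fiPSC.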

How the data were processed

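Per the labels, ribosomal RNA was depleted and libraries were made with a stranded mRNA kit. The study's methods name that kit but no depletion of ribosomal RNA, so how the RNA was selected is not settled by the sources. They give paired reads of 100 bases. The submitters' processing notes name Trimmomatic 0.32, TopHat2 2.0.9, Bowtie2 2.1.0, Cufflinks 2.2.1, Cuffdiff and the build mm9. The authors deposited 1 FPKM value per assembled locus and library (the header says RPKM). A scaling between libraries is not given in the sources used here.

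The coordinates were found to fit GRCm38, not mm9. Of the loci with ends near both ends of a coding gene, 2980 were on the gene's strand and 59 were not (98.1% the same). The strand was read from the table's order of loci. Of 54914 loci, 1 with a blank value was left out. A stranded locus was named for a gene of GENCODE vM21 by a mutual overlap of at least 50%, and the one with the highest mean was used. Printed gene names were not used. The number of fragments in a library was inferred from the step of the lowest values over loci of 600 to 6000 bp. Intervals and limits from these cover counting error only, and 3 fragments were taken as the most that a count of 0 allows.

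Groups were compared in pairs in R 4.3.3 by limma 3.58.1 (eBayes with trend) on log2(FPKM + 1). A locus entered when 3 or more of the 6 libraries had 1 FPKM or more. Calls used a Benjamini-Hochberg adjusted p below 0.05 over all loci tested, and single genes also an exact permutation test (scipy 1.17.1). A fold change on this scale understates the change of low genes. The fit was tested on simulated data.

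The members, gene lists, promoter motifs and tests were chosen with earlier results of these data known. Named were all members, up to 6 genes a list with the largest change in SSCiPSC against SSC among those past the threshold, those above 10 FPKM that missed it, and the 3 genes most like each member. Bmp4 was named outside these rules. Other genes named after their values were seen are marked as such. Single results of 2 genes in these lists are not reported here, and the genes are kept in the counts. The deposited table of feature numbers holds no measurement and was not used.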

Additional observations from a re-analysis of the deposited data

How the results depend on the processing

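Each result was recomputed without the trend in eBayes, after median-ratio scaling or quantile normalization, with 0.1 as the pseudocount, with a mean of 5 FPKM or more required or nothing required, with all 9 libraries in 1 fit, with the replicate number as a block, with loci of a gene summed, at an adjusted p below 0.01 and with each library left out. For the 6 regulators against SSC, none of 184 repeats changed direction and 7 fell short of the threshold, all named in the report except those at an adjusted p below 0.01 (Prdm1 and Dppa3 in SSCiPSC, Nanos3 in fiPSC). Without 1 library, the number of regulators called ranged from 4 to 6 in SSCiPSC and from 5 to 6 in fiPSC, partly because Prdm14 was no longer tested without 1 iPSC library. Between the iPSC groups no alternative called a regulator or a pathway gene. There, with 1 library left out, the difference of Prdm1 ranged from -0.052 (without SSCiPSC replicate 2) to 0.142 and that of Tfap2c from -0.062 (without SSCiPSC replicate 1) to 0.124, with -0.0070 without fiPSC replicate 2. Boll turned to 1.06 in SSCiPSC against SSC with its loci summed, past the threshold in the other direction.

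The counts of all loci depended more on the setting. With a mean of 5 FPKM or more required, which leaves fewer loci to test, 9707 instead of 18396 were called in SSCiPSC against SSC, 10158 instead of 19680 in fiPSC against SSC and 11 instead of 23 in fiPSC against SSCiPSC. The last count was also 11 with all 9 libraries and 9 at an adjusted p below 0.01. Without 1 library, the counts ranged from 11357 to 13901, from 11300 to 16585 and from 2 to 10. The split by direction moved as well. In SSCiPSC against SSC, 9582 loci were higher and 8814 lower with all libraries, between 9012 and 9487 higher and between 4101 and 4710 lower without 1 SSC library, and between 4761 and 5204 higher and between 6596 and 6980 lower without 1 SSCiPSC library. In fiPSC against SSC, 10658 were higher and 9022 lower, between 10495 and 10951 higher and between 5016 and 5764 lower without 1 SSC library, and between 4757 and 5125 higher and between 6543 and 6781 lower without 1 fiPSC library. Fewer loci are tested with 1 library less. The filter on the mean gave 6436 higher and 3271 lower loci in SSCiPSC and 6526 and 3632 in fiPSC, and median-ratio scaling 8446 and 9812 in SSCiPSC and 9657 and 9892 in fiPSC. In SSCiPSC against SSC, the median over all loci was 0.11 on the log2 scale and -0.03 after median-ratio scaling, and no regulator changed direction there.

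Replicate numbers showed no pairing of the samples in a correlation of deviations from the group mean, which cannot exclude shared animals or batches. The correlation of same-numbered libraries was at most 0.0267, and -0.244 at the lowest. With the replicate block, 6 regulators were still called in each comparison with SSC and 0 between the iPSC groups, and the count of all loci in fiPSC against SSCiPSC went from 23 to 6. The shallow SSC libraries limit Dppa3, Nanos3, Prdm14 and Tfap2c, each of which had under 10 fragments in at least 1 of them.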
